A study of Mus musculus with 16 samples.

Results

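Unfolded protein response genes were examined in tumor-associated macrophages (TAMs) that did or did not carry Tim-4, a phosphatidylserine receptor of resident peritoneal macrophages. The set held 31 genes, chosen by name for their place in the pathway, at a time when earlier results of these data were known. It was made up of 14 chaperones and folding enzymes of the endoplasmic reticulum (ER), 6 genes of the ATF4 arm, 6 stress sensors and factors, and 5 genes of ER-associated degradation (ERAD). All 31 were found among the 55604 genes listed, and all 31 were among the 16861 genes tested, which are those that reached 10 counts in 4 or more of the 8 libraries.

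RNA was sequenced from TAMs of the peritoneal cavity of C57BL/6 mice that bore tumors of ID8, an ovarian cancer line of mouse epithelial origin that spreads over the peritoneum. Per the study's methods the mice were female and 6 to 8 weeks old, wild-type hosts received luciferase-labeled ID8 cells, and TAMs for sequencing were taken 6 to 7 weeks into tumor growth. No tumor-free macrophages were among these samples, so both groups came from tumor-bearing hosts. After a density gradient that removed most tumor cells, Tim-4+ TAMs were captured with an antibody to Tim-4, and Tim-4- TAMs were then captured from the remaining cells with beads against F4/80. Thus Tim-4- TAMs went through a second capture that Tim-4+ TAMs did not, and handling and subset cannot be told apart. The samples formed 4 pairs, numbered 793, 784, 783 and 779, each with 1 library per subset (n = 4 in each). The labels do not say whether a number stands for 1 mouse or a pool. Below, 4 values in a row are always in that order of pairs.

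The ER folds secreted and membrane proteins. When unfolded proteins gather there, the sensors IRE1 (Ern1), PERK (Eif2ak3) and ATF6 start the unfolded protein response. ATF6 and the spliced form of XBP1 turn on ER chaperones and ERAD genes, whereas PERK phosphorylates eIF2 alpha, which slows translation in general and favors translation of ATF4. ATF4 can also be raised without ER stress, by other eIF2 alpha kinases that sense lack of amino acids, heme or viral RNA, and it turns on genes of amino acid supply and of stress. Macrophages keep a large secretory and lysosomal apparatus and use the ER heavily.

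Levels are given as CPM, which are counts scaled by library size and by edgeR's TMM factor. The Tim-4+ libraries held 53527928 to 57768202 counts and the Tim-4- libraries 55618306 to 69594245, and 3 counts corresponded to 0.0382 to 0.0630 CPM on this scale. This floor covers counting error only. Timd4, the gene for Tim-4, was at 1160, 1743, 524 and 1166 CPM in Tim-4+ TAMs and at 84.9, 11.1, 22.3 and 1.96 CPM in Tim-4- TAMs. It was higher in the Tim-4+ library of every pair. The summed level of 8 macrophage markers ranged from 43257 to 55691 CPM over the Tim-4+ libraries and from 20867 to 33357 CPM over the Tim-4- libraries. The markers did not all go the same way. By the test described below, 5 of the 8 were called higher in Tim-4+ TAMs and 1 was called lower. The summed level of 11 markers of tumor and mesothelial cells ranged from 113 to 404 CPM and from 456 to 2196 CPM, respectively. All 11 had a log2 fold change below 0, and 10 of them were called lower in Tim-4+ TAMs. Over all tested genes 8.97% were called higher and 8.43% lower. None of those 11 was at 0 in any library.

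To determine how the pathway differed between the subsets, each Tim-4+ library was set against the Tim-4- library of its pair, by fitting the pair as a block. The difference is given as a log2 fold change, positive where Tim-4+ TAMs were higher, with its standard error (SE). Genes were called at an adjusted p under 0.05 by the quasi-likelihood test of edgeR, adjusted over all tested genes after Benjamini and Hochberg. Of the 31 genes, 8 were higher, 3 were lower and 20 were not called. Among all tested genes 8.97% were called higher and 8.43% were called lower, so the 25.8% of the 31 called higher stood above the background share and the 9.68% called lower stood near it. The genes called higher were the chaperones Dnajb9, Calr, Pdia3, Hsp90b1, Manf and Dnajc3, the ERAD gene Edem2 and the ATF4-arm gene Ppp1r15a. The genes called lower were Asns, Chac1 and Trib3, all of the ATF4 arm. None of the 8 reached a 2-fold rise (3.8% of all tested genes were called higher by at least that), and all 3 that fell did so by more than 2-fold (background 5.79%).

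Most of the 31 genes lay on the higher side. The log2 fold change was above 0 for 26 of them, with a median of 0.30, against -0.0012 over all tested genes. In 18 of them, 58.1%, the Tim-4+ library was above the Tim-4- library in all 4 pairs, compared with 22.4% of all tested genes. In 3 of them it was below in all 4 pairs (20.2% of all tested genes). In 4 genes, Hsp90b1, Pdia3, Calr and Canx, the lowest Tim-4+ library lay above the highest Tim-4- library (background 6.84%). No gene showed the reverse (background 5.92%). The 3 genes called lower were also the only ones with a mean under 10 CPM. Of the other 28, 8 were called higher and 0 lower, against 12.8% and 8.04% of tested genes at that level, and at an unadjusted p under 0.05 the same fit gave 14 higher and 0 lower among these 28, against 23.3% and 15.3% of tested genes at that level. The scaling bears on these values: with total counts in place of TMM the median of all tested genes moved to -0.36, and 2 of the 31 were called higher and 6 lower.

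**Figure D1:**
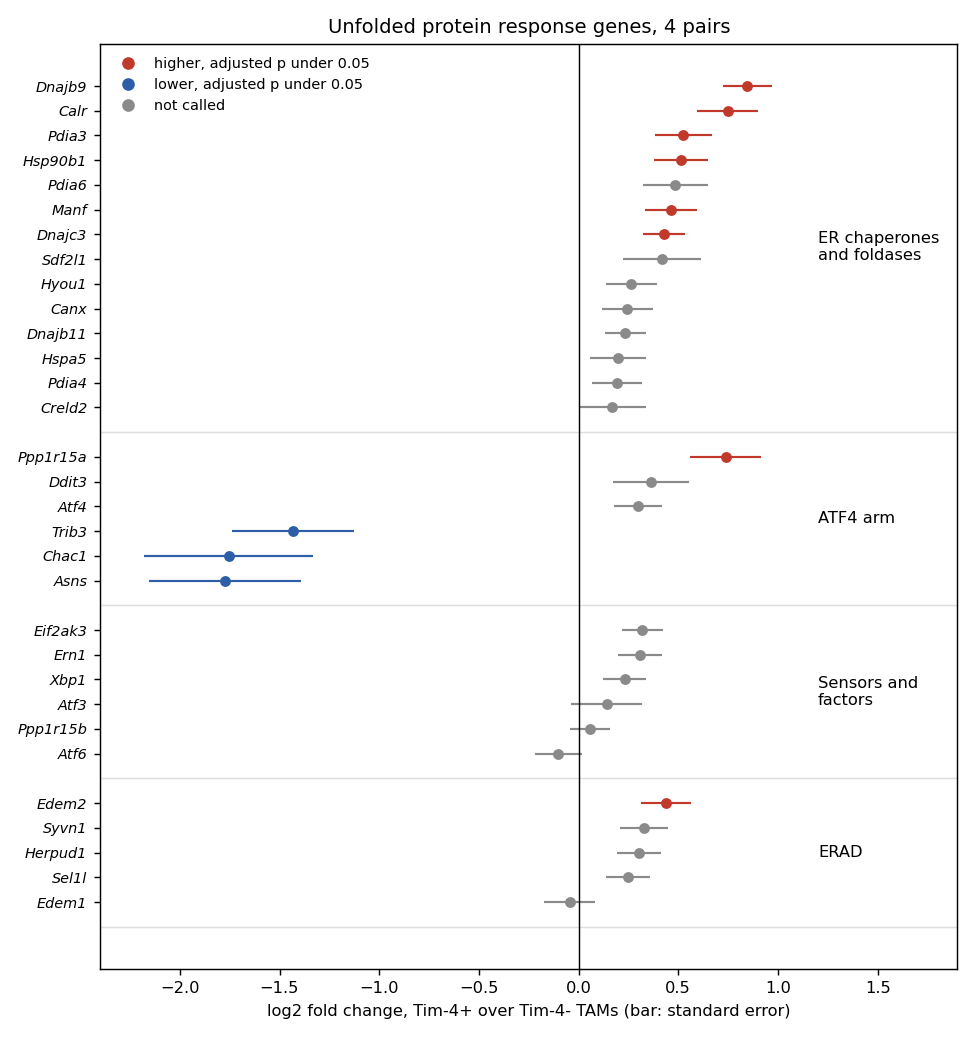
Each point is the log2 fold change of 1 gene, Tim-4+ over Tim-4- TAMs (x axis, 0 is no difference), with its SE as a bar, for the 31 genes grouped by role (y axis, n = 4 pairs). Red points were called higher, blue points lower and gray points were not called. All 14 ER chaperones lie to the right of 0 under TMM scaling, whereas Asns, Chac1 and Trib3 lie between -1.77 and -1.43.

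Of the 14 ER chaperones and folding enzymes, 6 were called higher in Tim-4+ TAMs, 0 were called lower and 8 were not called. The share called higher was 42.9%, against 8.97% of all tested genes and 12.8% of those with a mean of at least 10 CPM. The log2 fold change was above 0 for all 14, from 0.17 to 0.85 with a median of 0.42. At an unadjusted p under 0.05, 7 were higher and 0 lower, where 16.8% of all tested genes were higher and 16.9% lower. With DESeq2 and the same block, 7 were called higher and 0 lower. That fit called more genes in general, 2204 higher and 2323 lower of the 16861 tested, against 1512 and 1421 with edgeR. By pair, the Tim-4+ library was above in 14 of 14 genes in pair 793, 14 in pair 784, 9 in pair 783 and 13 in pair 779, and the median log2 ratio of the 14 genes was 0.46, 0.61, 0.037 and 0.39. Pair 783 thus had the smallest median, with 5 of the 14 genes lower in its Tim-4+ library. Its Tim-4+ library also had the lowest Timd4 level and the highest summed level of tumor and mesothelial markers (404 CPM) of the Tim-4+ libraries, and the part of either in the result was not tested.

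Calreticulin (Calr), a lectin chaperone that binds calcium, was at 1530, 1521, 1178 and 1799 CPM in Tim-4+ TAMs and at 874, 760, 880.5 and 1062 CPM in Tim-4- TAMs. The lowest Tim-4+ library was above the highest Tim-4- library. The means were 1507 ± 255 and 894 ± 125 CPM (SD, n = 4), with a log2 fold change of 0.75 (SE 0.15, adjusted p = 0.0185, edgeR). Calnexin (Canx), its membrane-bound relative, was at 487, 500.0, 450 and 535 CPM in Tim-4+ TAMs and at 378, 447, 441 and 399 CPM in Tim-4- TAMs. The groups did not overlap here either, but the difference was small, 0.24 (SE 0.13, adjusted p = 0.225, edgeR), and Canx was not called.

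Pdia3 encodes ERp57, the disulfide isomerase that works with both lectins. It was at 876, 811, 646 and 983 CPM in Tim-4+ TAMs and at 566, 531, 575 and 608 CPM in Tim-4- TAMs. Its groups did not overlap, and the log2 fold change was 0.53 (SE 0.14, adjusted p = 0.0430, edgeR). The other isomerases of the set were not called. Pdia6 was at 0.49 (SE 0.16, adjusted p = 0.0750) and was above in 3 of 4 pairs. It was called in 3 of 14 alternative settings. These were DESeq2 (adjusted p = 0.0288), no filter on low counts (adjusted p = 0.0410) and pair 783 left out (0.66, adjusted p = 0.0151, edgeR). Among the others, it was at 0.13 with total counts (adjusted p = 0.489, edgeR). Without pair 793, 784 or 779 its adjusted p was 0.203, 0.264 and 0.211 (edgeR). Pdia4 was at 0.19 (SE 0.13, adjusted p = 0.320).

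GRP94 (Hsp90b1), the HSP90 of the ER, was at 754, 687, 645 and 939 CPM in Tim-4+ TAMs and at 478, 497, 537 and 592 CPM in Tim-4- TAMs. The groups did not overlap, and the log2 fold change was 0.51 (SE 0.13, adjusted p = 0.0377, edgeR). BiP (Hspa5), the HSP70 of the ER and the gene most often read as a sign of ER stress, was at 1741, 1033, 656 and 2343 CPM in Tim-4+ TAMs and at 1450, 888, 654 and 1899 CPM in Tim-4- TAMs. The Tim-4+ library was above in all 4 pairs, but by little, and the groups overlapped widely. BiP differed by 0.20 on the log2 scale (SE 0.14, adjusted p = 0.373, edgeR), and it was -0.16 with total counts. Hspa5 spread widely over the pairs, and its highest library was 3.57-fold above its lowest within Tim-4+ TAMs and 2.90-fold within Tim-4- TAMs.

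Among the J-domain partners of BiP, Dnajb9 (ERdj4) rose most. It was at 152, 86.1, 74.7 and 268 CPM in Tim-4+ TAMs and at 88.7, 47.5, 50.5 and 118 CPM in Tim-4- TAMs. The ranges overlapped because pairs differed, but within each pair the Tim-4+ library was higher, by log2 ratios of 0.77, 0.85, 0.56 and 1.18. The log2 fold change was 0.85 (SE 0.12, adjusted p = 0.00859, edgeR), and Dnajb9 was called in 12 of 14 alternative settings, more than any other of the 31 genes. Dnajc3 (p58IPK), which also restrains PERK, was at 140, 141, 142 and 214 CPM in Tim-4+ TAMs and at 110, 103, 116 and 141 CPM in Tim-4- TAMs. Only the Tim-4- library of pair 779 reached the Tim-4+ range. Its log2 fold change was 0.43 (SE 0.11, adjusted p = 0.0311, edgeR). Dnajb11 (ERdj3) was at 0.23 (SE 0.10, adjusted p = 0.158), and it was higher in all 4 pairs without being called.

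Of the smaller or accessory factors, Manf, a secreted ER protein that binds BiP, was called. It was at 94.5, 110, 57.9 and 175 CPM in Tim-4+ TAMs and at 62.6, 63.1, 53.7 and 137 CPM in Tim-4- TAMs, with a log2 fold change of 0.46 (SE 0.13, adjusted p = 0.0482, edgeR). Sdf2l1, a partner of ERdj3, was at 0.42 (SE 0.19, adjusted p = 0.180) and was not called. It depended on the pairs, with 0.18 without pair 784 (adjusted p = 0.468) and 0.61 without pair 783 (adjusted p = 0.0331, edgeR), where it was called. Hyou1 (GRP170), the exchange factor of BiP, was at 0.26 (SE 0.13, adjusted p = 0.193). Creld2, an ER protein induced by stress, was at 0.17 (SE 0.17, adjusted p = 0.524) and was above in only 2 of 4 pairs. Per exon length, the highest of the 14 was Calr, with mean levels of 523 and 310 RPKM in Tim-4+ and Tim-4- TAMs, followed by Hspa5 (341 and 289 RPKM), Pdia3 (264 and 182 RPKM) and Hsp90b1 (188 and 130 RPKM).

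The chaperone calls depended on the pairs and on the block. Without pair 793, 784, 783 or 779, 1, 0, 8 and 1 of the 14 genes were called higher, and 719, 78, 1573 and 445 of all tested genes. Without the block, 0 were called, with adjusted p from 0.0686 (Calr) to 0.551 (Manf) for the 6. Under total-count scaling, Dnajb9 (0.49) and Calr (0.39) were still called, and 6 of the 14 genes fell below 0. The median of all tested genes was -0.36 under that scaling, and all 14 lay above it. Plasma cells are rich in ER chaperones. The summed level of 12 markers of plasma and B cells was 44.1 to 105 CPM in Tim-4+ and 97.8 to 193 CPM in Tim-4- libraries. Of the 11 tested, 0 were called higher and 5 lower, against 8.97% and 8.43% of all tested genes. The macrophage marker sum, given above, was higher in the Tim-4+ library of every pair. The part of either cell type in the chaperone result was not tested. In bulk RNA, fewer cells of a type and less RNA per cell cannot be told apart.

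**Figure D2:**
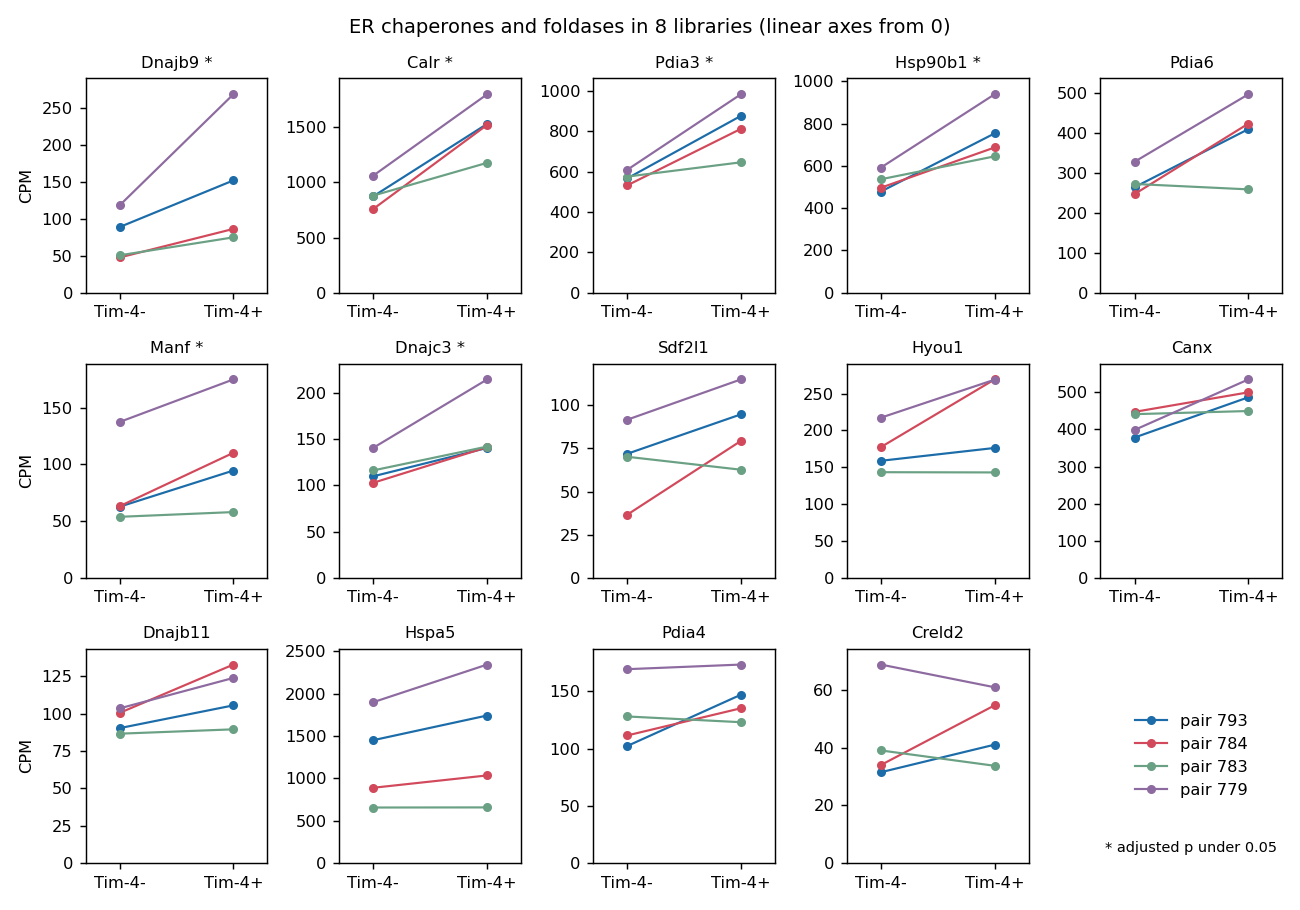
Each panel shows 1 ER chaperone or folding enzyme, with the CPM of each library (y axis, linear from 0) in Tim-4- and Tim-4+ TAMs (x axis) and a line for each of the 4 pairs. Stars mark genes called higher. Lines rise in every pair for the 6 called genes, and the line of pair 783 is flat or falls in Hspa5, Hyou1, Pdia4, Pdia6, Sdf2l1 and Creld2.

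Promoter sequences were searched for the letters through which the pathway is known to act. The ER stress response element (ERSE) is CCAAT, any 9 bases, then CCACG, to which NF-Y binds at CCAAT and ATF6 at CCACG. In RefSeq promoters on GRCm38.p6, from 250 bases before to 50 bases after the start site, both strands were searched, and 27 of the 31 genes had an entry (not Atf6, Ppp1r15b, Manf or Hyou1). The exact ERSE was found in 7 of 12 chaperone promoters, 58.3%, and in 39 of 32851 promoters in all, 0.119%. It was found in 0 of 6 ATF4-arm promoters and in 1 of 5 ERAD promoters, that of Syvn1, which was not called. The 7 chaperone genes were Hspa5, Hsp90b1, Dnajc3, Pdia6, Calr, Canx and Creld2, of which 3 were called higher. Of the other 5 chaperones with an entry, Dnajb9 and Pdia3 were called higher. A match is only a description of the letters and not evidence that a factor bound there. The stretches around the match are shown for Hspa5, the usual marker of ER stress, which was not called, and for the 3 called genes, with the ERSE in capitals. In Calr, and at the second match in Hsp90b1, the element lies on the opposite strand and so reads as its reverse complement.
Hspa5 (chr2:34771974-34772093, plus strand): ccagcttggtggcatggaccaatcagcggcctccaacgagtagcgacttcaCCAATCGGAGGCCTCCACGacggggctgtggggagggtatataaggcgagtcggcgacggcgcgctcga
Calr (chr8:84847025-84847144, minus strand): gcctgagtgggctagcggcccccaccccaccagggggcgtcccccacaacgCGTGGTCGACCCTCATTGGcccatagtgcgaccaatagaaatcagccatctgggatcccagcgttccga
Hsp90b1 (chr10:86705523-86705666, minus strand): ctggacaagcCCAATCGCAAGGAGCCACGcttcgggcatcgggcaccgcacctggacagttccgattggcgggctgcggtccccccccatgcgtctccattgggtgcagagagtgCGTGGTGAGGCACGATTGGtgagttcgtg
Dnajc3 (chr14:118937776-118937895, plus strand): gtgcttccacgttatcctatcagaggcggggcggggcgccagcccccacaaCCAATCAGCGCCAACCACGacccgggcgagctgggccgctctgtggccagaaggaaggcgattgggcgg

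A shorter form, ERSE-II (ATTGG, any base, CCACG), was found in 12 of 32851 promoters, 0.0365%, and among the 31 genes in Herpud1 and Dnajb11. The UPR element core TGACGTGG, whose reverse complement begins with the CCACG of the ERSE, was found in 222 promoters, 0.676%, and in 0 of the 27.

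The ATF4 arm did not move as 1 group. Of its 6 genes, Ppp1r15a was called higher, Asns, Chac1 and Trib3 were called lower, and Atf4 and Ddit3 were not called. Over all tested genes 8.97% were called higher and 8.43% lower, so a single gene called higher lay near the background. Of the 6 genes, 3 had a log2 fold change above 0 and 3 below. Their median was -0.57, but it was 0.29 where at least 50 counts in 4 libraries were required, which removed Chac1.

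Atf4, the transcription factor of the arm, was at 431, 372, 209 and 567 CPM in Tim-4+ TAMs and at 354, 266, 191 and 463 CPM in Tim-4- TAMs. It was higher in the Tim-4+ library of each pair, with widely overlapping ranges. This gave 0.30 as the log2 fold change (SE 0.12, adjusted p = 0.124, edgeR), and with DESeq2 and the block Atf4 was called higher (0.30, adjusted p = 0.0498). ATF4 is controlled mostly in translation, so this level does not measure the protein. Ddit3 encodes CHOP, a stress factor tied to cell death. It was at 36.3, 19.4, 13.3 and 122 CPM in Tim-4+ TAMs and at 43.7, 12.7, 11.7 and 64.6 CPM in Tim-4- TAMs. Both libraries of pair 779 stood high, and in pair 793 the Tim-4- library was the higher one. Over the pairs, the log2 fold change was 0.36 (SE 0.19, adjusted p = 0.232, edgeR).

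Ppp1r15a (GADD34), which directs a phosphatase to eIF2 alpha and so ends the arm's signal, was at 538, 327, 423 and 908 CPM in Tim-4+ TAMs and at 498, 156, 216 and 522 CPM in Tim-4- TAMs. It was higher in each pair, by log2 ratios of 0.11, 1.06, 0.97 and 0.80, and nearly level in pair 793. The log2 fold change was 0.74 (SE 0.18, adjusted p = 0.0294, edgeR), and without pair 784, 783 or 779 it was 0.62, 0.65 and 0.71 with an adjusted p of 0.143, 0.0523 and 0.107. Immediate early genes, which rise when cells are handled or stimulated, were likewise near level in pair 793. Their summed level was 16881, 15168, 22076 and 32987 CPM in Tim-4+ TAMs and 17314, 8165, 13563 and 16952 CPM in Tim-4- TAMs, and thus higher in Tim-4+ TAMs in the other 3 pairs. Of 18 tested, 5 were called higher and 0 lower, against 8.97% and 8.43% of all tested genes. Their median log2 fold change was 0.61, and Fosb rose most (1.37, SE 0.32, adjusted p = 0.0316, edgeR). The part of the immediate early response in the level of Ppp1r15a was not tested.

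Asns encodes asparagine synthetase, a standard target of ATF4. It was at 0.714, 3.34, 2.54 and 1.16 CPM in Tim-4+ TAMs and at 2.94, 11.2, 3.61 and 8.42 CPM in Tim-4- TAMs. It was lower in the Tim-4+ library of each pair, most in pair 779 and least in pair 783, although the ranges overlapped. The counts behind these levels were 34, 167, 139 and 56 against 196, 821, 283 and 549. The log2 fold change was -1.77 (SE 0.38, adjusted p = 0.0222, edgeR).

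Trib3, a pseudokinase induced by ATF4 and CHOP that feeds back on them, was at 0.525, 2.46, 1.66 and 1.14 CPM in Tim-4+ TAMs and at 1.84, 5.56, 2.74 and 4.86 CPM in Tim-4- TAMs. The Tim-4+ library was the lower one in each pair. Its log2 fold change was -1.43 (SE 0.31, adjusted p = 0.0208, edgeR). Chac1, which degrades glutathione, was at 0.168, 0.720, 0.201 and 0.520 CPM in Tim-4+ TAMs and at 0.659, 1.74, 0.395 and 3.53 CPM in Tim-4- TAMs. Its Tim-4+ counts were only 8, 36, 11 and 25, so its levels are the least precise of the 31. Over the 4 pairs, its log2 fold change was -1.76 (SE 0.43, adjusted p = 0.0299, edgeR).

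In each of these 3 genes the difference was smallest in pair 783 and largest in pair 779, as it was for the markers of tumor and mesothelial cells. The log2 ratios, computed with 0.5 CPM added, were -1.50, -1.61, -0.43 and -2.42 for Asns. They were -1.19, -1.03, -0.58 and -1.71 for Trib3 and -0.80, -0.87, -0.35 and -1.98 for Chac1. The log2 ratio of the summed tumor and mesothelial markers was -2.01, -2.77, -1.17 and -3.18. Trib3 thus had pairs 793 and 784 in the other order. The summed plasma and B cell markers also differed most in pair 779 (-1.43), but least in pair 793 (-0.39). The summed tumor and mesothelial marker levels were 113, 205, 404 and 242 CPM in Tim-4+ TAMs and 456, 1401, 907 and 2196 CPM in Tim-4- TAMs. The part of these cells in the 3 genes was not tested. Each of the 3 kept its direction without any 1 pair, but without pair 793, 784 or 779 none was called, with log2 fold changes of -1.42 to -1.79 for Asns, -1.22 to -1.53 for Trib3 and -1.39 to -1.95 for Chac1. At an unadjusted p under 0.05 all 3 were lower in each of those fits, in which 4081 to 4636 of all tested genes passed that threshold in either direction. Without the block none was called either (adjusted p = 0.122, 0.163 and 0.175).

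**Figure D3:**
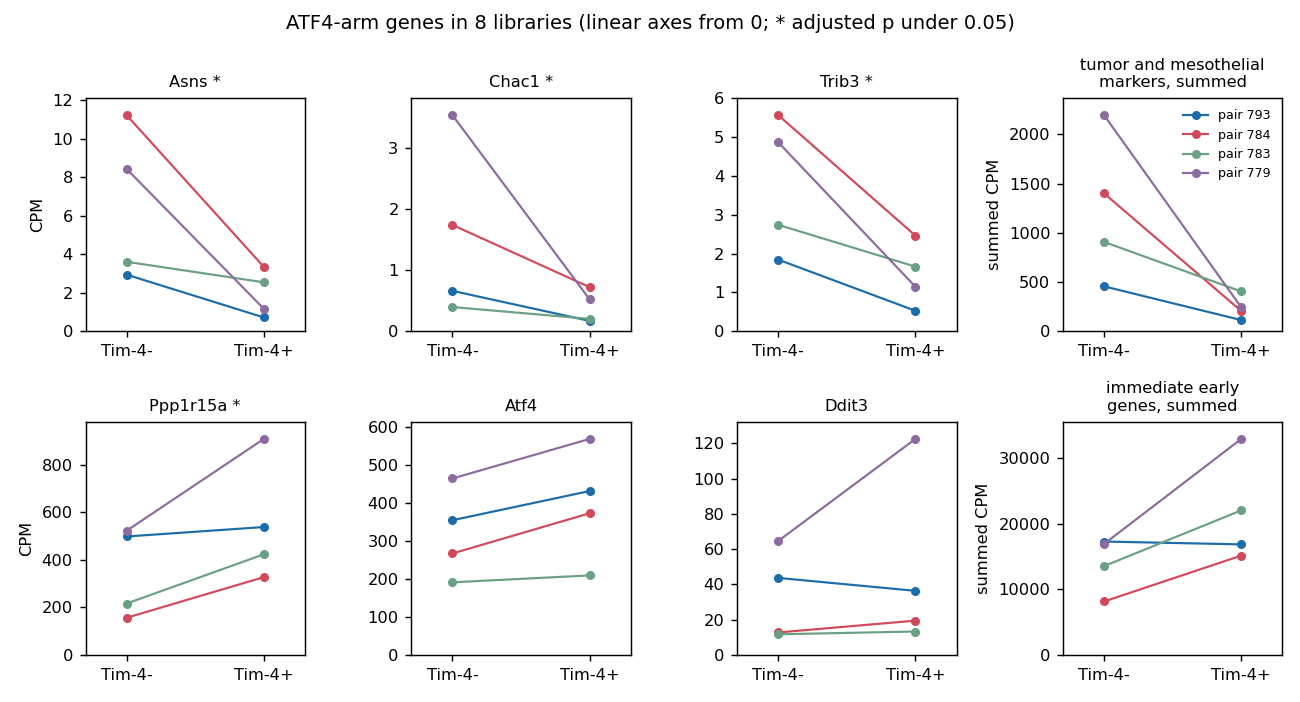
The CPM of each library (y axis, linear from 0) in Tim-4- and Tim-4+ TAMs (x axis), with a line for each of the 4 pairs, is shown for the 6 ATF4-arm genes. The last panel of the top row is the summed CPM of 11 tumor and mesothelial markers, and that of the bottom row is the summed CPM of the immediate early genes. Asns, Chac1 and Trib3 fall in every pair and stay under 12 CPM, whereas Ppp1r15a and Atf4 rise in every pair.

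The promoters of the 3 genes that fell share a letter match. The response element of C/EBP and ATF factors, TGATG, any base, AA, was found in the promoters of Asns, Trib3 and Chac1 and in 1304 of 32851 promoters in all, 3.97%. It was found in 0 of 12 chaperone promoters, a count near the share over all promoters, and not in those of Atf4, Ddit3 and Ppp1r15a. Among the other genes of the set it was found in Atf3 and Herpud1. Neither was called, and their log2 fold changes were above 0 (0.14 and 0.30). The stretches are shown with the element in capitals. In Trib3 and Chac1 it reads as its reverse complement.
Asns (chr6:7693169-7693288, minus strand): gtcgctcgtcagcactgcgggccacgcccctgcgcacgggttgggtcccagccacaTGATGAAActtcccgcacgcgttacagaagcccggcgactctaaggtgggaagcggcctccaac
Trib3 (chr2:152344011-152344130, minus strand): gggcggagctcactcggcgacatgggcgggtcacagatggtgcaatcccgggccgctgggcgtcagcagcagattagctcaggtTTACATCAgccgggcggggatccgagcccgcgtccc
Chac1 (chr2:119350993-119351112, plus strand): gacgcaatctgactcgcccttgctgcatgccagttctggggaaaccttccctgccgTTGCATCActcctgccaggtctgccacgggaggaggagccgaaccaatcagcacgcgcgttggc

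Of the 6 sensors and factors, 0 were called. Over all tested genes 8.97% were called higher and 8.43% lower, so this count lay near the background. The log2 fold changes ran from -0.10 to 0.32, with 5 above 0 and 1 below. In all 4 pairs, 3 of the genes were higher and 0 lower. At an unadjusted p under 0.05, 2 were higher and 0 lower (edgeR). The shares were 16.8% and 16.9% of all tested genes. They were 23.3% and 15.3% of tested genes that averaged 10 CPM or more, as all 6 did. With DESeq2 and the block, Eif2ak3 was called higher (adjusted p = 0.0404). Ern1 (IRE1), the kinase and RNase that splices Xbp1, was at 133, 113, 124 and 94.4 CPM in Tim-4+ TAMs and at 122, 97.0, 97.8 and 64.4 CPM in Tim-4- TAMs. The Tim-4+ library was the higher one in each pair, by 0.31 (SE 0.11, adjusted p = 0.0903, edgeR). Eif2ak3 (PERK) was at 45.0, 29.5, 38.7 and 60.3 CPM against 37.8, 23.8, 33.4 and 42.4 CPM, again higher in each pair, by 0.32 (SE 0.10, adjusted p = 0.0696, edgeR). Atf6 was at 101, 97.1, 103 and 128 CPM against 98.6, 130, 111 and 121 CPM, and its log2 fold change was -0.10 (SE 0.12, adjusted p = 0.586, edgeR).

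Xbp1, the factor that IRE1 activates, was at 225, 226, 142 and 287 CPM in Tim-4+ TAMs and at 192, 179, 135 and 235 CPM in Tim-4- TAMs. It was higher in each pair but was not called (0.23, SE 0.11, adjusted p = 0.175, edgeR). Counts per gene do not separate the spliced from the unspliced form, so the activity of IRE1 is not measured here. Atf3, a factor induced by ATF4 and by many other stimuli, was at 793, 444, 617 and 935 CPM in Tim-4+ TAMs and at 1073, 313, 499 and 825 CPM in Tim-4- TAMs. Its pairs disagreed in direction, with the Tim-4- library higher in pair 793, as for Ddit3 and for the immediate early genes as a whole. The fitted log2 fold change was 0.14 (SE 0.18, adjusted p = 0.624, edgeR). Ppp1r15b, the constitutive partner of the eIF2 alpha phosphatase, was at 133 to 180 CPM in all 8 libraries and differed by 0.056 (SE 0.10, adjusted p = 0.740, edgeR). It was thus the gene closest to 0 apart from Edem1.

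Of the ERAD genes, which pull misfolded proteins out of the ER for degradation, Edem2 was called. It trims mannose from misfolded glycoproteins. It was at 69.6, 66.3, 73.8 and 95.0 CPM in Tim-4+ TAMs and at 52.6, 37.6, 65.9 and 73.7 CPM in Tim-4- TAMs, with a log2 fold change of 0.44 (SE 0.13, adjusted p = 0.0488, edgeR). It lay close to the threshold and was called in 7 of 14 alternatives. Its relative Edem1 was at -0.045 (SE 0.13, adjusted p = 0.842). Syvn1 (HRD1), the ubiquitin ligase of ERAD, was at 0.33 (SE 0.12, adjusted p = 0.0998), and its partner Sel1l was at 0.25 (SE 0.11, adjusted p = 0.160). Herpud1, which recruits other ERAD factors and responds strongly to ER stress, was at 172, 105, 75.5 and 334 CPM in Tim-4+ TAMs and at 158, 87.7, 61.4 and 232 CPM in Tim-4- TAMs. Herpud1, Syvn1 and Sel1l were above in all 4 pairs without being called (Herpud1 0.30, SE 0.11, adjusted p = 0.0967, edgeR). With total counts all 3 of them fell below 0, at -0.055, -0.032 and -0.11.

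The level of the genes also varied between pairs. When the 2 libraries of a pair were averaged on the log2 scale, the distance from the lowest to the highest pair exceeded the log2 fold change in 26 of the 31 genes. The same was true of 79.6% of the 16331 tested genes with a count in every library, so this count lay near the background. The median distance between the highest and lowest pair was 0.75 on the log2 scale for the 28 genes that averaged 10 CPM or more, compared with 0.55 for all 8768 tested genes at that level. Pair 779 held the highest library in both subsets in 20 of the 31 genes, against 10.6% of all tested genes. Pair 783 held the lowest library in both subsets in 10 of them, against 11.8% of all tested genes. The distance between pairs was largest for Ddit3 (7.14-fold), Chac1 (4.81-fold), Asns (4.23-fold) and Herpud1 (4.09-fold), followed by Trib3 (3.76-fold) and Hspa5 (3.22-fold). Ddit3, Herpud1, Hspa5, Atf4, Manf, Xbp1 and Syvn1 were highest in pair 779 and lowest in pair 783 in both subsets. Canx, Sel1l, Calr, Pdia3 and Hsp90b1 were the 5 genes in which subsets lay further apart than pairs. These are descriptions of 4 pairs, and nothing in the labels says how the pairs differed in age, tumor load or day.

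**Figure D4:**
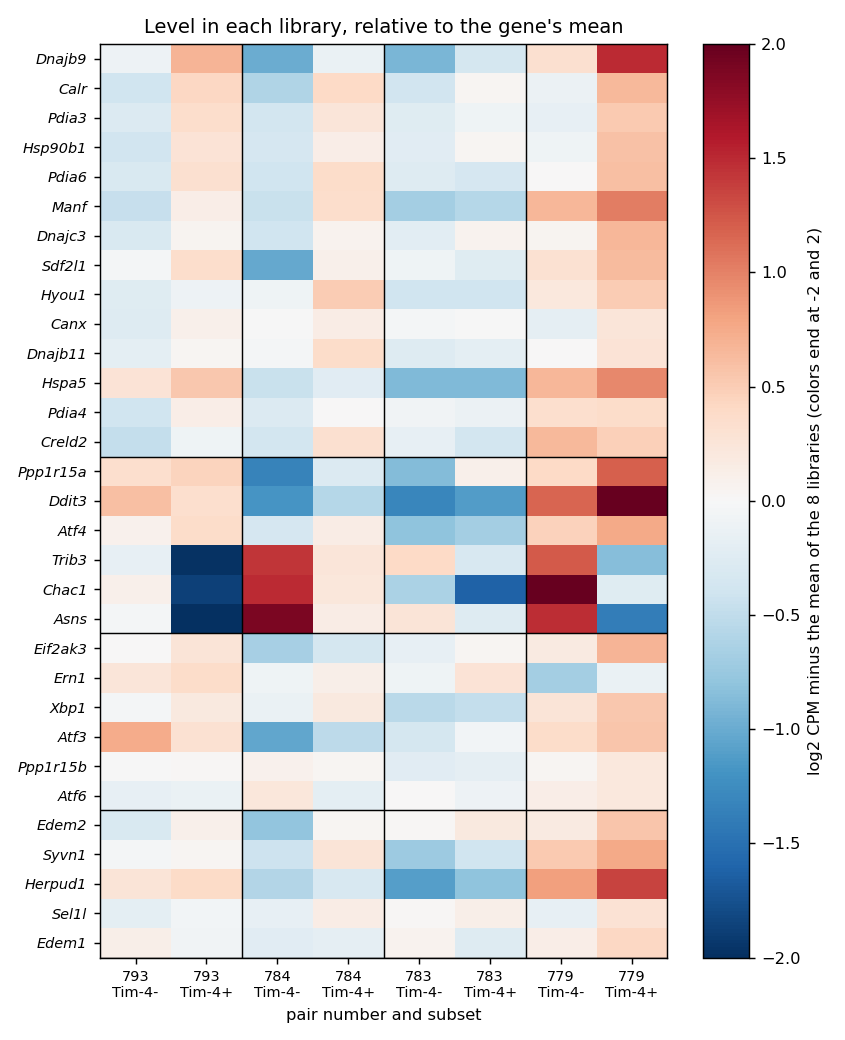
Colors give the log2 CPM of each library minus the gene's mean over the 8 libraries, for the 31 genes (rows, by role) in the libraries of each pair (columns, Tim-4- then Tim-4+). Red is above and blue is below the mean. Both columns of pair 779 are red for most rows, and Asns, Chac1 and Trib3 are darkest red in the Tim-4- libraries of pairs 784 and 779.

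The other genes of the pathway were then counted from fixed lists. For comparison with these counts, 8.97% of all tested genes were called higher and 8.43% lower. Of 25 other folding factors of the ER, 6 were called higher and 0 lower, with a median log2 fold change of 0.26. Pdia5, a further disulfide isomerase, rose most, from 9.56, 4.13, 7.85 and 9.53 CPM in Tim-4- TAMs to 23.4, 19.5, 8.51 and 26.4 CPM in Tim-4+ TAMs (1.28, SE 0.33, adjusted p = 0.0405, edgeR). Of 28 genes of translocation, glycosylation and export from the ER, 6 were called higher and 0 lower, with a median of 0.23. The largest rise was in Ddost, a subunit of the oligosaccharyltransferase that was at 503, 497, 284 and 552 CPM in Tim-4+ TAMs and at 251, 183, 213 and 241 CPM in Tim-4- TAMs (1.01, SE 0.18, adjusted p = 0.0120, edgeR). In both lists the median turned below 0 with total counts (-0.094 and -0.13, against -0.36 for all tested genes).

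Of 21 other ERAD genes, 3 were called higher and 1 lower, with a median of 0.10. The lectin Os9, which delivers misfolded glycoproteins to the ERAD ligase, rose most (0.90, SE 0.14, adjusted p = 0.00954, edgeR), and its groups did not overlap, at 380 to 506 CPM in Tim-4+ and 203 to 253 CPM in Tim-4- libraries. Of 17 tested genes of the ATF6 family and of pathway regulators, 5 were called higher and 1 lower, with a median of 0.13. Creb3l1 (OASIS), a membrane-bound factor built like ATF6, was at 12.5, 14.9, 14.2 and 13.7 CPM in Tim-4+ TAMs and at 5.14, 3.96, 7.54 and 4.85 CPM in Tim-4- TAMs (1.40, SE 0.20, adjusted p = 0.00792, edgeR). Traf2, an adaptor that links IRE1 to JNK, fell (-0.63, SE 0.12, adjusted p = 0.0140, edgeR). Its levels were 12.6 to 22.9 CPM in the Tim-4+ and 21.6 to 30.9 CPM in the Tim-4- libraries.

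On the side of ATF4, of 13 genes of eIF2, its exchange factor and its kinases 1 was called higher, Eif2ak1, the kinase that senses heme (0.53, SE 0.12, adjusted p = 0.0227, edgeR), and 0 were lower. Of 22 tested targets of ATF4 in amino acid supply and stress, 2 were called higher and 5 lower, with a median of -0.33. In both lists the count called higher lay near the 8.97% of all tested genes. Phgdh, the first enzyme of serine synthesis, fell most among those above 5 CPM, from 6.79, 14.8, 4.34 and 18.9 CPM in Tim-4- TAMs to 1.11, 2.98, 4.02 and 1.50 CPM in Tim-4+ TAMs (-2.19, SE 0.58, adjusted p = 0.0470, edgeR). As with Asns, the pair with the smallest difference was 783 and that with the largest was 779. Among the targets above 5 CPM, Nupr1, a stress-induced chromatin protein, rose most (1.35, SE 0.14, adjusted p = 0.00434, edgeR). It was at 182, 255, 121 and 230 CPM in Tim-4+ TAMs and at 83.1, 75.3, 59.5 and 82.2 CPM in Tim-4- TAMs. None of the 12 aminoacyl-tRNA synthetases, which ATF4 also targets, was called. They ranged from -0.32 to 0.31 with a median of 0.018, and at an unadjusted p under 0.05, 0 were higher and 1 was lower. Of 6 CHOP targets 0 were higher and 1 was lower (median -0.17).

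Chaperones outside the ER served as a contrast. Of 14 cytosolic heat shock genes 0 were called higher and 2 lower, with a median of -0.0031. Of the called genes above 5 CPM, Hsp90aa1, the inducible cytosolic HSP90, fell most (-0.45, SE 0.12, adjusted p = 0.0423, edgeR). The lowest log2 fold change of the list was -1.42, in a gene that was not called. Of 8 mitochondrial chaperones and proteases 0 were called in either direction, with a median of 0.055 and 0 at an unadjusted p under 0.05. The difference between these lists and the ER chaperones was not tested. With total counts the medians of the other ERAD, ATF6-family, eIF2, tRNA synthetase, heat shock and mitochondrial lists were -0.26, -0.23, -0.18, -0.34, -0.36 and -0.30, against -0.36 for all tested genes.

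**Figure D5:**
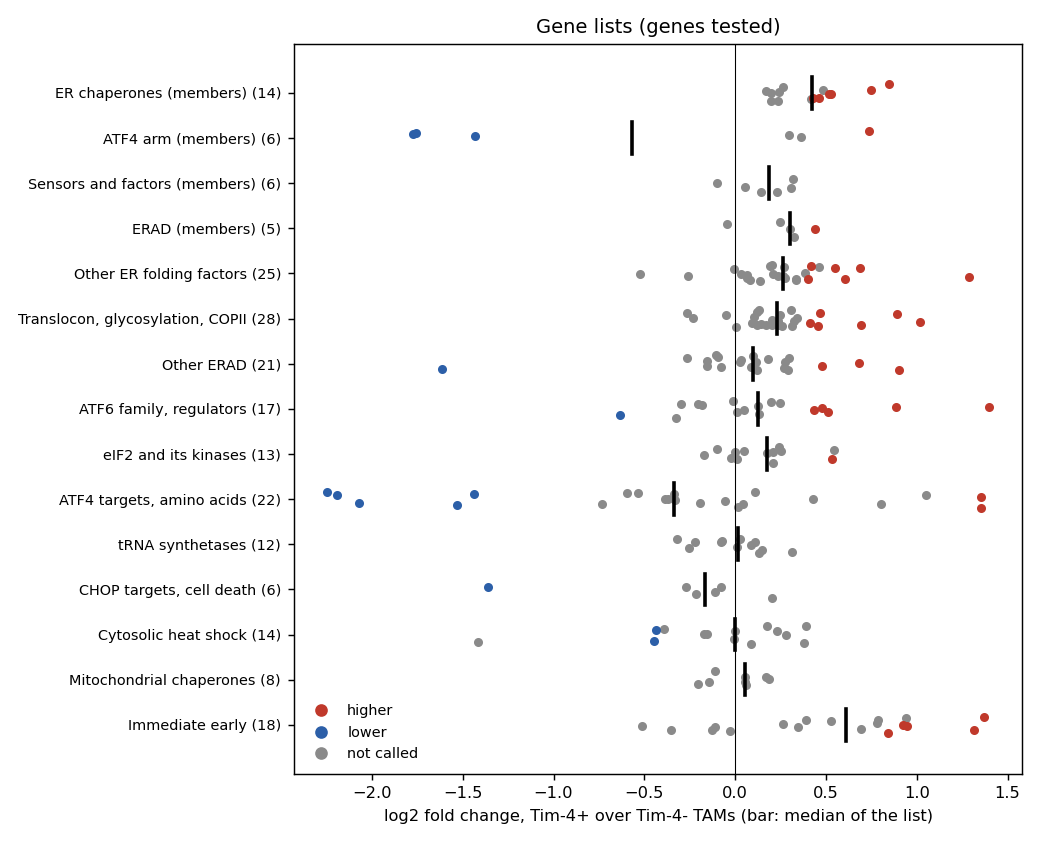
Each point is the log2 fold change of 1 gene, Tim-4+ over Tim-4- TAMs (x axis), in the 4 groups of the 31 genes and in the further lists (y axis, with the number of genes tested). Red points were called higher, blue points lower and gray points were not called, and the black bar is the median of the list. The bar of the ER chaperones lies at 0.42 and that of the cytosolic heat shock genes at -0.0031.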

How the data were processed

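RNA-seq was done on 4 numbered pairs of TAM subsets, Tim-4+ and Tim-4-, as 8 libraries in 2 lanes each. The authors deposited counts of reads per gene and lane, as whole numbers without normalization. Ribosomal RNA had been removed and stranded, paired-end libraries were sequenced. The submitters' processing notes list FastQC 0.11.3, TopHat2 2.0.13, Cufflinks and Cuffdiff 2.2.1 with GRCm38 (mm10). The counter, and whether it used strand, are not given in the sources used here, so genes that overlap others are uncertain. Reads that aligned to several places were set aside.

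The 2 lanes of a library were summed to 1 replicate. The lane listed by symbol (Tim-4- TAMs, pair 793, lane 1) was joined by order, since 96.8% of 53704 symbols stood at the same place, all 31 genes among them. Names, positions and exon lengths (for RPKM) were from GENCODE M21 on GRCm38, which held 98.6% of the identifiers, and promoters from RefSeq.

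Tests used edgeR 4.0.16 (R 4.3.3) with TMM, robust quasi-likelihood estimation, the pair as a block and adjustment after Benjamini and Hochberg over 16861 genes, those reaching 10 counts in 4 or more libraries. The SE is the size of the log2 fold change over the square root of F. The scripts were tested on simulated data. The pair numbers are in the labels. After removal of group means, both libraries of a pair were correlated over genes, with r = 0.471, 0.498, 0.408 and 0.277 for pairs 793, 784, 783 and 779, which describes the pairing only, since genes are not independent. TMM factors were 0.833 to 0.948 in Tim-4+ and 1.05 to 1.18 in Tim-4- TAMs, and the common biological coefficient of variation was 0.261.

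Named genes were the 31 and, of each further list, the called gene with the largest rise and that with the largest fall at a mean of at least 5 CPM. The 31 genes and all lists were chosen with earlier results of these data known. Labels do not say whether pairs came from separate animals. With the pair as a block, p-values rest on how the difference between subsets varied over these pairs, not on the spread of levels between pairs. Alternatives were other scalings, count filters, DESeq2 1.42.0, no block, single lanes and each pair left out. Other data of the study were not analysed here.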

Additional observations from a re-analysis of the deposited data

Results flagged for a closer look

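The highest and lowest of the 4 libraries of each subset were compared with the others by Dixon's ratio for each of the 31 genes, that is, in 62 groups, of which chance alone flags about 1 in 20. In 2 groups 1 library stood apart. Dnajc3 was at 214 CPM in the Tim-4+ library of pair 779 and at 140 to 142 CPM in the other 3 Tim-4+ libraries. Manf was at 137 CPM in the Tim-4- library of pair 779 and at 53.7 to 63.1 CPM in the other 3 Tim-4- libraries. Without pair 779 the log2 fold change was 0.36 for Dnajc3 (adjusted p = 0.103) and 0.50 for Manf (adjusted p = 0.108, edgeR), and neither was called.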

How the results depend on the processing

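The main counts were 1512 genes higher and 1421 lower in all, 8 higher and 3 lower among the 31, 6 higher and 0 lower among the chaperones, and 1 higher and 3 lower in the ATF4 arm. With each pair left out in turn, they ranged from 78 to 1573 and 54 to 1895 over all genes, 0 to 9 and 0 to 3 among the 31, 0 to 8 and 0 to 0 among the chaperones, and 0 to 1 and 0 to 3 in the ATF4 arm. Fits with 3 pairs have fewer libraries, and most calls were lost without pair 793, 784 or 779. Without the replicate block, which the pair numbers of the labels supply, 147 genes were higher and 85 lower in all, with 0 calls in either direction among the 31, the chaperones and the ATF4 arm (5 higher and 3 lower of the 31 at an unadjusted p under 0.05, which 3560 of all tested genes passed in either direction). With DESeq2 and the block, 2204 genes were higher and 2323 lower, with 2 higher in the ATF4 arm, Ppp1r15a and Atf4. With total counts per library, 789 genes were higher and 4903 lower, so that 13.9% of the calls were higher against 51.6% with TMM. There, 2 of the 31 were higher and 6 lower, 2 chaperones were higher, and 0 ATF4-arm genes were higher. The log2 fold changes that turned below 0 with total counts were those of Hspa5 (-0.16), Dnajb11 (-0.12), Hyou1 (-0.094), Pdia4 (-0.16), Canx (-0.11), Creld2 (-0.19), Atf4 (-0.061), Ern1 (-0.048), Eif2ak3 (-0.038), Xbp1 (-0.13), Atf3 (-0.22), Ppp1r15b (-0.30), Herpud1 (-0.055), Sel1l (-0.11) and Syvn1 (-0.032). Under that scaling Ppp1r15b, Atf6 and Edem1 were called lower. With pairs left out, Creld2 ranged from -0.0059 to 0.29 and Edem1 from -0.16 to 0.043, with 0.0070 for Edem1 without pair 793. Other scalings, filters and single lanes turned the direction of none of the 31 genes and kept every count above within 1.5 times. Some single calls were lost. In lane 1 alone Chac1 was not called (adjusted p = 0.0683, edgeR). In lane 2 alone Trib3, Manf and Edem2 were not called (adjusted p = 0.0694, 0.0548 and 0.0577, edgeR). Edem2 was also not called without the lane listed by symbol (adjusted p = 0.0572, edgeR). Chac1 was not tested where at least 50 counts in 4 libraries were required, and without it the median of the ATF4 arm turned from -0.57 to 0.29. Counts of 8 to 36 in Tim-4+ TAMs limit what can be said of Chac1.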
